A study of Mus musculus with 12 samples.

Results

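The RNA of epididymal WAT (eWAT), the fat pad that lies beside the testis and epididymis, was compared between mice injected with a GIP analog and mice injected with saline. Genes of the eWAT table whose average log2 CPM was 0 or more were taken, which is an average of 1 CPM (reads scaled by library size) or more and gave 13657 of the 27179 genes listed. The study sequenced 12 samples from 2 fat depots, and the 6 of eWAT form 2 groups of 3 from separate C57/BL6 mice, as far as the labels tell. Both groups ate a high-fat diet (HFD) during 2 weeks that followed 10 days of chow, and both were accustomed to the needle by 3 subcutaneous injections on chow. The saline group then received 5 injections of saline on HFD, and the analog group 5 injections of (D-Ala2)GIP[Lys37PAL], each a dose of 2 pmol/kg, the last of its injections on chow having also held the analog. Libraries were made from polyadenylated RNA, with 200 ng of total RNA per sample. The labels give no age. The RNA came from bulk tissue, in which fewer cells of a type and less RNA per cell cannot be told apart.

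GIP is a hormone that enteroendocrine cells of the gut release after a meal, and in particular after fat. It acts through GIPR, a receptor that raises cAMP inside the cell through the stimulatory G protein and adenylyl cyclase. The analog is made to resist the peptidase that clears native GIP and carries a fatty acid chain. White fat holds adipocytes filled with lipid together with a stroma of progenitors, capillaries, macrophages, lymphocytes and mast cells, and the epididymal pad is also covered by mesothelium.

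Each gene of the deposited table has a log2 fold change, a level (average log2 CPM), and a likelihood ratio with its p-value. Values per library could not be tied to a mouse by their names, so no level per mouse is given and the spread between mice enters only through the likelihood ratio. The depth of each library is unknown here for the same reason. The table does not state which treatment stands in the numerator. Its name puts saline before GIP, and the volcano plot that the study drew of this comparison is headed GIP against saline and shows Il2rb, positive in the table, on its positive side. Genes are called positive or negative here as the table has them. The p-values were adjusted over the 13657 genes by the Benjamini-Hochberg method, and an adjusted p under 0.05 made a call. Errors after ± are approximate standard errors, taken as the size of the log2 fold change divided by the square root of its likelihood ratio.

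Negative genes outnumbered positive ones, and most changes were modest. Of the 13657 genes, 1433 were called (10.5%), 383 as positive (2.80%) and 1050 as negative (7.69%). The median log2 fold change of all genes was 0.00, and 79.6% of them lay within 0.5 of 0. Among the called genes, 63.4% of the positive and 76% of the negative ones had an absolute log2 fold change under 1, and the medians were 0.81 and −0.78. Of the called genes, 81 (0.593% of those tested) also moved by over 1.5 on the log2 scale, 37 positive (0.271%) and 44 negative (0.322%). Genes just inside the limit on expression had small values, such as −0.31 for Slc15a3 and 0.60 for Trim36, and so had those just outside it, such as 0.89 for Kcnk5 and −0.78 for Pla2g4b, and none of these 4 had an unadjusted p under 0.05.

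**Figure D1:**
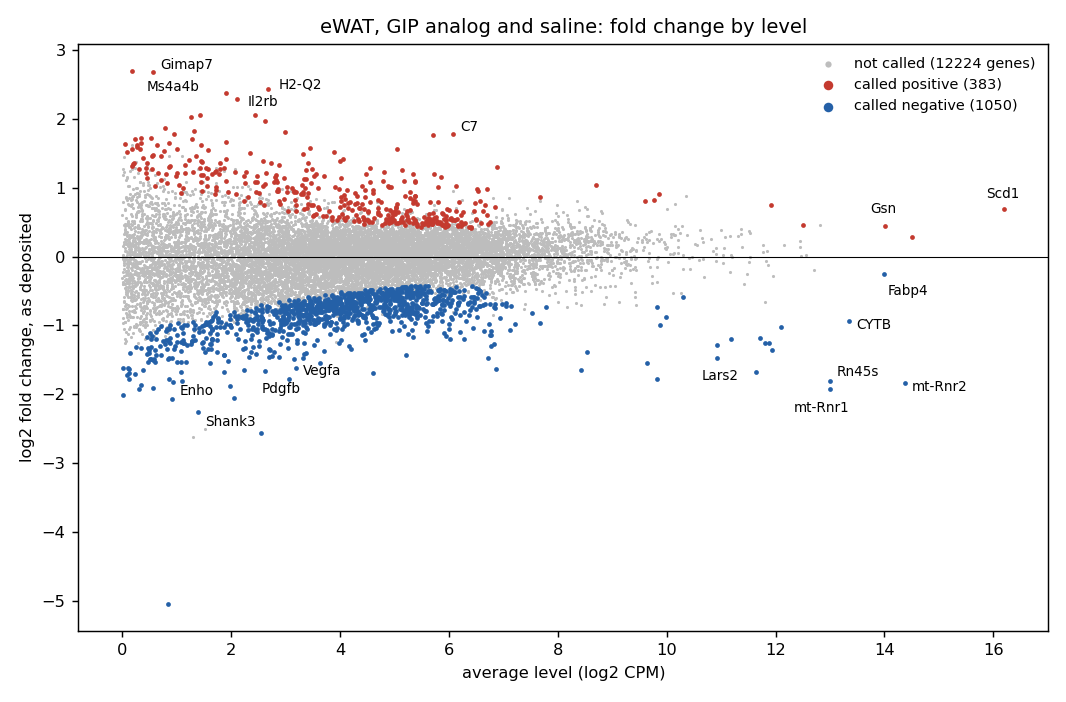
Log2 fold change as deposited (y axis) against the average level in log2 CPM (x axis) for 13657 genes of eWAT, each point 1 gene, with called genes in red (383 positive) and blue (1050 negative) and the rest in grey. The mitochondrial ribosomal RNAs and the ribosomal RNA precursor Rn45s lie on the negative side at average log2 CPM of 12.99 to 14.37, and the largest positive changes lie at low levels.

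The largest positive changes belonged mostly to genes of lymphocytes and antigen presentation. Gimap7, a GTPase of lymphocytes (chr6:48718621-48724636 of GRCm38), had the largest log2 fold change among named genes, 2.67 ± 0.44 (adjusted p = 2.38e-07). It was followed by H2-Q2, an MHC class I gene of the Q region, with 2.44 ± 0.69, by Ms4a4b, a membrane protein of T cells, with 2.37 ± 0.37, and by the interleukin-2 receptor chain Il2rb, with 2.29 ± 0.32. Of the 40-base windows of the H2-Q2 transcript, 4.6% also occur in its neighbour H2-Q4, so part of its signal may be shared. The chemokine receptor Cxcr3 and the cytotoxic granule protein Nkg7 both had 2.05, the Ras regulator Rasal3 2.02 and the granzyme Gzma 1.86. Outside the lymphocytes, Clic6, of the chloride intracellular channel family, had 1.82 ± 0.44, and Cd209b, a lectin of the DC-SIGN family, 1.81 ± 0.48 (adjusted p = 0.00433). All 10 of these genes had an average log2 CPM under 3, and Gimap7 and Gzma had only 0.56 and 0.78. The limit acts on the average of both groups, so a scarce gene can pass it through the group where it is high.

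At the other end stood genes of several kinds. Shank3, a scaffold protein known from synapses (chr15:89493013-89560261), had −2.25 ± 0.42 (adjusted p = 8.36e-06), and Enho, which encodes the secreted peptide adropin, −2.06 ± 0.38 (8.62e-06). The 7SK RNA Rn7sk, which holds the elongation factor P-TEFb inactive and lacks a poly(A) tail, had −2.05 ± 0.34, and the mitochondrial ribosomal RNAs mt-Rnr1 and mt-Rnr2 had −1.92 ± 0.10 and −1.84 ± 0.10. Among the coding genes were Kcnc2, a voltage-gated potassium channel (−1.91 ± 0.40), Krt14, a keratin of epithelia (−1.87 ± 0.53), and Ccm2l, a gene of the endothelium and heart related to Ccm2 (−1.81 ± 0.41). The long noncoding Snhg14 had −1.92 and the pseudogene Rps12-ps12 −2.0, at average log2 CPM of 0.30 and 0.01. Of the 40-base windows of Rps12-ps12, 41.1% are found in its parent gene Rps12, so its reads cannot be told apart from those of Rps12 there.

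Among the most abundant called genes, the positive ones moved far less, while the negative ones included mt-Rnr1 and mt-Rnr2, named above. On the positive side they were the desaturase Scd1 (0.69 ± 0.17 at an average log2 CPM of 16.20, the highest level of the 5), the carbonic anhydrase Car3 (0.28 ± 0.05), the actin-severing protein Gsn (0.44), transferrin Trf (0.45 ± 0.12) and the cytochrome Cyp2e1 (0.75 ± 0.21). Gsn carried a likelihood ratio of 1334890 in the table, far above that of any ribosomal RNA, so no error is given for it. On the negative side were mt-Rnr2, mt-Rnr1, the ribosomal RNA precursor Rn45s (−1.80 ± 0.20), the mitochondrial CYTB (−0.94 ± 0.10) and the fatty acid carrier Fabp4 (−0.25 ± 0.01). The likelihood ratio of Fabp4 was 277 for this small change, while the errors of the adipocyte genes Lpl and Cidec were 0.16 and 0.13. The small error of Fabp4 should therefore be read with care. Of the adipose genes fixed to be shown whatever their values, these 4 were not called, with 0.08 ± 0.13 for the hormone Adipoq, 0.29 ± 0.42 for leptin Lep, −0.13 ± 0.19 for resistin Retn and 0.02 ± 0.29 for the regulator Pparg, at adjusted p between 0.737 and 0.974. Gipr, the receptor of the hormone, was barely expressed at an average log2 CPM of 0.22 and had −0.11 ± 0.45 (adjusted p = 0.917). Ucp1, the uncoupling protein of brown fat, lay under the limit at −1.39 and was not tested, with a log2 fold change of 0.30 and an unadjusted p of 0.767.

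The makeup of the pad was read from marker lists. Of 20 genes that define adipocytes, all 20 were above the limit, and 1 was positive (Car3) and 2 were negative (Fabp4 and the adipogenic factor Cebpa, −0.98 ± 0.25). All 20 mesothelial markers were expressed, with a median of 0.20 and 13 values above 0. Msln (0.23 ± 0.31), Upk3b (0.61 ± 0.41) and Wt1 (0.79 ± 0.31) did not pass. Slpi (−0.85 ± 0.32) and Muc16 (−0.92 ± 0.35) lay on the other side and did not pass either. At an unadjusted p of edgeR under 0.05, 1 mesothelial marker was positive and 3 were negative. Krt14 alone was called in that list. None of 20 markers of epididymis and testis reached the limit, 1 of 15 pancreatic and 6 of 16 skeletal muscle markers did, and none of these 7 was called. Of 11 B cell genes none was called (median −0.18), and Cd79a, which signals for the B cell receptor, had 0.14 ± 0.36. The 7 tested erythrocyte genes had a median of −0.44 and none was called. The lists of NK and T cells had the highest medians of the 65, 1.74 and 1.25. Of the tested genes 7 of 8 NK genes and 8 of 13 T cell genes were positive, against 2.80% of all genes. These lists hold 18 and 22 genes, and the rest were under the limit on expression. The called Zap70, Cd3d, Cd4 and Gzma had an average log2 CPM of only 0.28, 0.57, 0.64 and 0.78. Such genes may have passed that limit only through the group where they are high. Of 24 endothelial markers 14 were negative, against 7.69% of all.

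**Figure D2:**
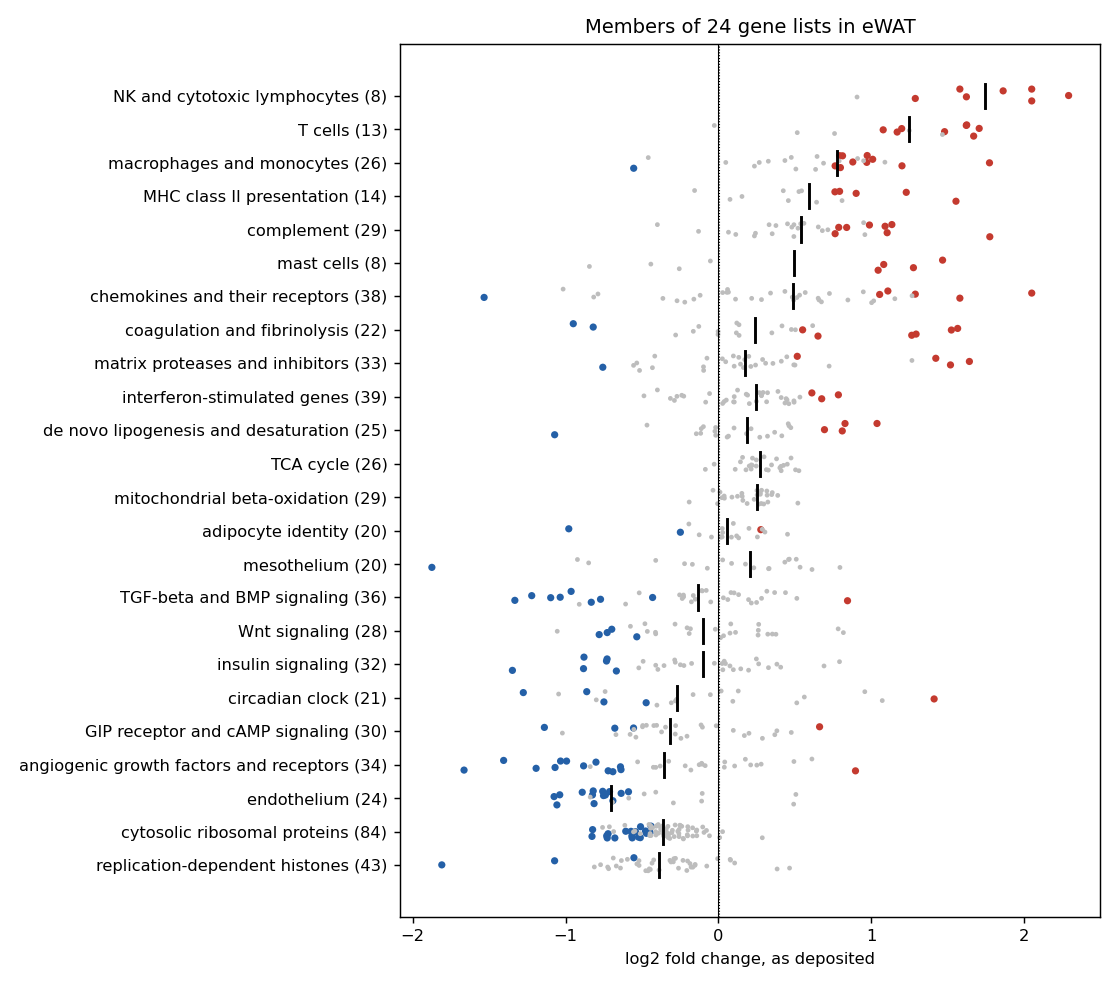
Log2 fold change as deposited (x axis) of the members of 24 gene lists, with the number of tested members in parentheses, called members as large red (positive) or blue (negative) points, other members in grey and the list's median as a black bar. The medians run from 1.74 for NK cells to −0.70 for endothelium, and that of all 13657 genes is 0.00.

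Among macrophage genes, 10 of 26 (38.5%, against 2.80% of all genes) were positive and 1 (3.8%, against 7.69%) was negative, with a median of 0.78. The positive ones included Adgre1, the F4/80 antigen (1.20 ± 0.24), the CSF1 receptor Csf1r (1.01 ± 0.29), the LPS coreceptor Cd14 (0.97 ± 0.26) and the pore-forming Mpeg1 (0.81 ± 0.23). Markers of long-lived tissue macrophages were in the same direction, with 1.77 ± 0.41 for the phosphatidylserine receptor Timd4, 0.97 ± 0.32 for the folate receptor Folr2 and 0.80 ± 0.25 for the scavenger receptor Cd163. The negative gene was Ly6c2, a marker of inflammatory monocytes (−0.55 ± 0.19). With the p-values of the whole table adjusted together, without the limit on expression, Folr2 and Ly6c2 no longer passed (adjusted p = 0.0586 and 0.0620). The list of lipid-associated macrophages, the cells that gather around dying adipocytes in obesity, did not move as one. Of its 19 tested genes 1 was positive (Gpnmb, 1.00 ± 0.24) and 1 negative (Fabp5, −0.84 ± 0.30, adjusted p = 0.0947 without the limit on expression), the median was 0.12, and the defining receptor Trem2 had −0.16 ± 0.29 (adjusted p = 0.792).

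Lectins and receptors of the innate immune system were positive beyond the lists. They were grouped into families by symbol after their values had been seen, so that their counts describe and test nothing. Of 5 tested CD209 lectins 4 were positive, namely Cd209b, Cd209f (1.23 ± 0.36), Cd209g (1.17 ± 0.38) and Cd209a (1.12 ± 0.36), and 27.1% of the 40-base windows of Cd209f also occur in Cd209g. The inhibitory Fc receptor Fcgr2b had 1.02 ± 0.24 and the leukotriene-forming lipoxygenase Alox5 1.5 ± 0.37. Of 25 genes of leukocyte adhesion, signaling and cytoskeleton, 14 (56%, against 2.80% of all genes) were positive and none negative, with a median of 0.92. They included the CD45 phosphatase Ptprc (0.89 ± 0.22), the integrin chains Itgal (1.36 ± 0.36) and Itgb2 (1.08 ± 0.29), the actin bundler Lcp1 (1.19 ± 0.25) and the phosphatase Ptpn22 (1.24 ± 0.28). In the GIMAP family only Gimap7 and Gimap3 (1.21 ± 0.24) of 9 were called, and the family's median was −0.11, with −0.36 ± 0.18 for Gimap6 and 0.06 ± 0.17 for Gimap4.

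Complement genes were positive without an exception among those called. Complement is a cascade of plasma and tissue proteins that tags cells and debris and can end in a membrane pore. Of 29 tested genes 8 (27.6%, against 2.80% of all genes) were positive and none negative (7.69% of all), with a median of 0.54. The pore component C7 (chr15:4987750-5063773) stood first with 1.77 ± 0.27 (adjusted p = 4.12e-08), at an average log2 CPM of 6.08. The C5a receptor C5ar1 had 1.13 ± 0.31 and properdin Cfp, which stabilizes the alternative pathway convertase, 1.1 ± 0.30. For the recognition molecules the values were 0.76 ± 0.24 for C1qb and 0.99 ± 0.35 for the ficolin Fcna, while C1qa (0.24 ± 0.23) and C1qc (0.95 ± 0.34) did not pass. Fcna lost its call without the limit on expression (adjusted p = 0.0854). C4a had 1.09 ± 0.28, but 41.9% of its 40-base windows are shared with C4b, which had 0.65 ± 0.35 and did not pass. The adipocyte-made factor D, Cfd, had 0.45 ± 0.25 and the central component C3 0.33 ± 0.35, also short of the threshold (adjusted p = 0.269 and 0.621). Of the macrophage list 10 of 26 genes were positive in the same comparison, and C1q, Cfp and C5ar1 are known to be made by macrophages. The part of cell makeup in the complement values was not tested.

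Antigen presentation through MHC class II leaned the same way. Of 14 tested genes 5 (35.7%, against 2.80% of all genes) were positive and none negative, with a median of 0.59. H2-DMb2, a chain of the peptide-loading molecule H2-DM, had 1.55 ± 0.44, the costimulatory ligand Cd86 1.23 ± 0.31, the invariant chain Cd74 0.90 ± 0.30, the protease Ctss, which trims the invariant chain, 0.79 ± 0.26, and H2-DMa 0.76 ± 0.26. The classical chains were positive in value without passing, with 0.81 ± 0.32 for H2-Ab1, 0.54 ± 0.29 for H2-Aa and 0.42 ± 0.26 for H2-Eb1 (adjusted p = 0.0820, 0.236 and 0.315). Ciita, the master regulator of the class II genes, had 0.08 ± 0.33. Without the limit on expression, 3 of the 5 calls were left, and those of Cd74 and H2-DMa were lost (adjusted p = 0.0626 and 0.0788). In MHC class I presentation 2 of 20 (10%, against the same 2.80%) were positive, the trimming peptidase Erap1 (0.58 ± 0.17) and H2-Q4 (1.29 ± 0.41). Of 39 interferon-stimulated genes 3 (7.7%) were positive and none negative, all of them GTPases of cell-autonomous defense, Gbp6 (0.78 ± 0.21), Irgm2 (0.68 ± 0.21) and Igtp (0.61 ± 0.21, adjusted p = 0.0702 without the limit on expression). Their median was 0.25, and Isg15, which is typical of the type I interferon response, had −0.27 ± 0.24. Among 18 dendritic cell genes Cd83 (1.07 ± 0.33) and Cd209a were positive and the actin bundler Fscn1 (−0.59 ± 0.18) negative.

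The proteases of mast cell granules were positive together. Mast cells are resident immune cells that store histamine and proteases. Of 8 tested genes 4 were positive (50%, against 2.80% of all genes), all 4 of them granule proteases, Mcpt4 (1.47 ± 0.42), the tryptase Tpsb2 (1.27 ± 0.38), the chymase Cma1 (1.08 ± 0.32) and carboxypeptidase Cpa3 (1.04 ± 0.35). The adjusted p of these genes lay between 0.00869 and 0.0348, and that of Cpa3 was 0.0670 without the limit on expression. Kit, the receptor that keeps mast cells alive and is found on other cells too, had −0.26 ± 0.22, and the histamine-forming Hdc −0.05 ± 0.36. Lower still, though not called, were the transcription factor Gata2 (−0.84 ± 0.31, unadjusted p = 0.0071) and the granule proteoglycan Srgn (−0.44 ± 0.16, unadjusted p = 0.0074), which other cells express too, so the list as a whole had members on both sides and a median of 0.50. The high-affinity IgE receptor chains Ms4a2 and Fcer1a were under the limit on expression.

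Chemokines, coagulation factors and matrix proteases gave further positive genes, with a few negative ones. Of 38 chemokines and receptors 5 were positive and 1 was negative (13.2% and 2.6%, against 2.80% and 7.69% of all genes), with a median of 0.49. They included Ccl5, Cxcr3 and Cxcr6 of the lymphocytes and the monocyte attractant Ccl12 (1.11 ± 0.36). The negative one was Cxcr4, the receptor of Cxcl12 (−1.53 ± 0.39), and Cxcl12 itself had −0.22 ± 0.21. In coagulation and fibrinolysis 6 of 22 were positive and 2 negative (27.3% and 9.1%). Fgl2, a prothrombinase of macrophages and lymphocytes (chr5:21372673-21378386), had 1.56 ± 0.26 (adjusted p = 2.70e-07), the urokinase Plau 1.52 ± 0.48, the transglutaminase F13a1 1.29 ± 0.42 and factor X, F10, 1.26 ± 0.45 with an adjusted p of 0.0487. The inhibitors Tfpi and Serpine2 had 0.65 ± 0.21 and 0.55 ± 0.16. The negative genes included Vwf, the von Willebrand factor of endothelium and platelets (−0.82 ± 0.23). Of 33 matrix proteases and inhibitors 4 were positive and 1 was negative (12.1% and 3%). The positive ones were Mmp9 (1.64 ± 0.55), Mmp13 (1.52 ± 0.49), Adam8 (1.42 ± 0.46) and Mmp19 (0.52 ± 0.17), and the negative one was Adamts9 (−0.76 ± 0.23). Mmp9 and Mmp13 were scarce, at average log2 CPM of 0.34 and 0.08. Without the limit on expression the calls of Mmp9, Mmp13, Mmp19 and F10 were lost (adjusted p between 0.0504 and 0.0927).

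**Figure D3:**
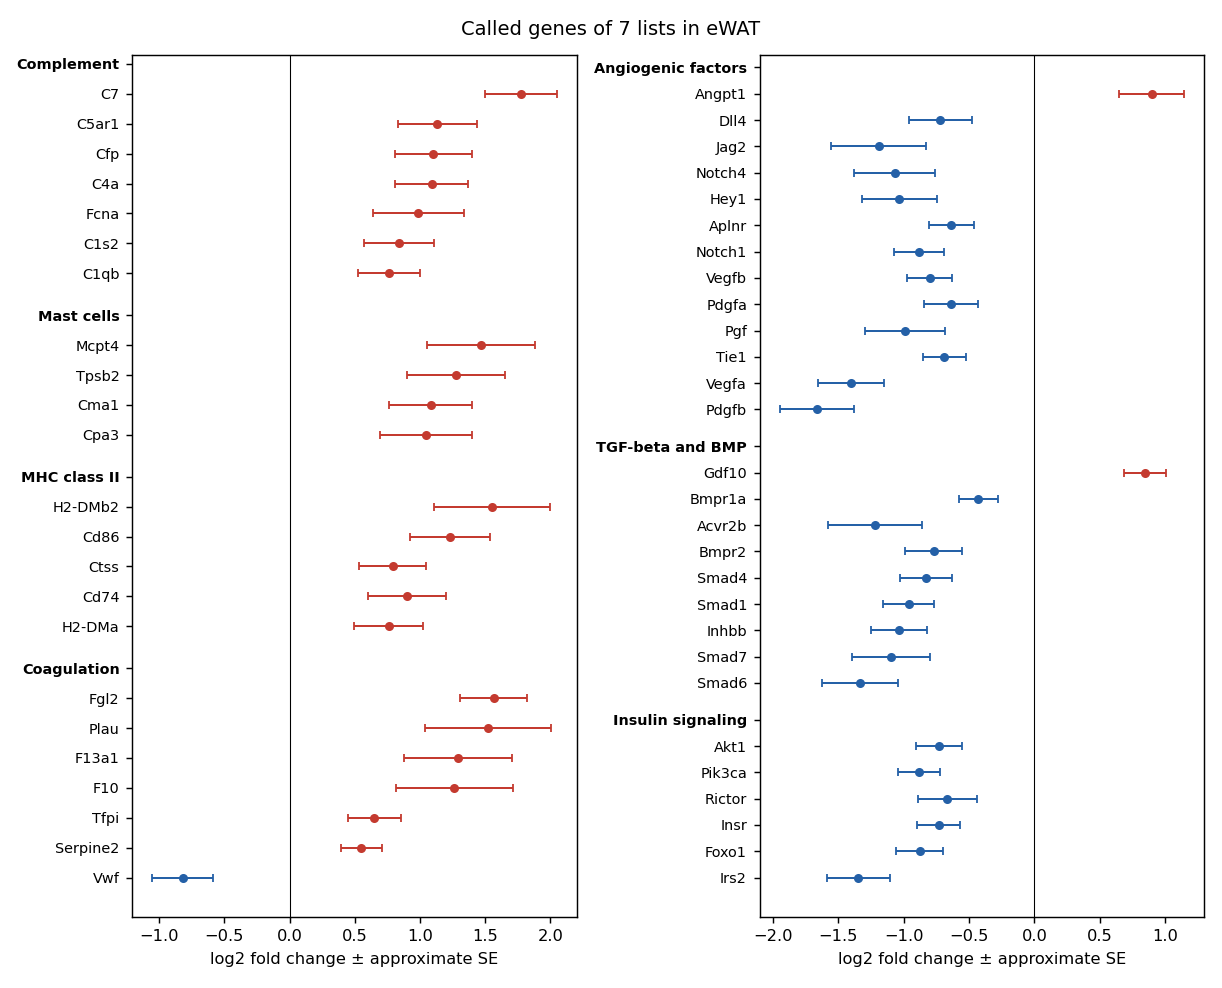
Log2 fold change as deposited (x axis) of called genes of 7 lists, 1 point per gene with bars of 1 approximate standard error, red for positive and blue for negative genes. Complement, mast cell and MHC class II genes are all on the right, insulin signaling genes all on the left, and among the angiogenic and TGF-beta genes only Angpt1 (0.90) and Gdf10 (0.84) are on the right.

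Many growth factors and receptors of blood vessels were negative. Vessels grow along gradients of VEGF, recruit pericytes through PDGF-B and choose tip and stalk cells through Notch. Of 34 tested genes 12 (35.3%, against 7.69% of all genes) were negative, 1 was positive and 21 were not called, with a median of −0.35. Among the ligands, Pdgfb (chr15:79995865-80024614) had −1.66 ± 0.28 (adjusted p = 9.38e-07), Vegfa (chr17:46016993-46032377) −1.40 ± 0.25 (4.12e-06), Pgf −0.99 ± 0.31, Vegfb −0.80 ± 0.17 and Pdgfa −0.64 ± 0.21. Of the Notch pathway, the receptors Notch4 and Notch1 had −1.07 ± 0.31 and −0.88 ± 0.19, the ligands Jag2 and Dll4 −1.19 ± 0.37 and −0.72 ± 0.24, and the target Hey1 −1.03 ± 0.29. The receptors Tie1 and Aplnr had −0.69 ± 0.16 and −0.64 ± 0.17, whereas the VEGF receptors Flt1 (−0.84 ± 0.30) and Kdr (−0.41 ± 0.20) and the angiopoietin receptor Tek (−0.11 ± 0.17) did not pass. Angpt1, a ligand of Tek made by perivascular and stromal cells, was the only positive gene with 0.90 ± 0.25. Of 24 endothelial markers 14 were negative in the same comparison, with −1.07 ± 0.18 for the tight junction protein Cldn5 and −0.64 ± 0.19 for the cadherin Cdh5. Whether the values of the growth factors follow from that was not tested. The basement membrane genes Hspg2, for perlecan (−1.08 ± 0.17), and Lama5, for a laminin chain (−1.30 ± 0.35), were negative too, and of 18 genes of mural cells the pericyte marker Cspg4 (−0.78 ± 0.23) and Cox4i2 (−0.86 ± 0.30) were negative and the smooth muscle gene Cnn1 (1.21 ± 0.41) positive. Dll4, Cox4i2 and Cnn1 lost their calls without the limit on expression (adjusted p = 0.0636, 0.0760 and 0.0701).

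Among genes of the TGF-beta and BMP pathways, receptors and transducers were among those called. Ligands of this family bind pairs of serine kinase receptors that act through SMAD proteins. Of 36 tested genes 8 (22.2%, against 7.69% of all genes) were negative and 1 (2.8%, against 2.80%) was positive, with a median of −0.13. Of the receptors, Acvr2b had −1.22 ± 0.36, Bmpr2 −0.77 ± 0.22 and Bmpr1a −0.43 ± 0.15 (adjusted p = 0.0771 without the limit on expression). Of the transducers, Smad1 had −0.96 ± 0.19 and the common Smad4 −0.83 ± 0.20, and the inhibitory SMADs, which these pathways induce, had −1.33 ± 0.29 (Smad6) and −1.10 ± 0.30 (Smad7). The activin subunit Inhbb, which adipocytes make, had −1.03 ± 0.21. The ligand Gdf10 was positive (0.84 ± 0.16, adjusted p = 1.94e-05), Smad3 had 0.06 ± 0.19, and the scarce Tgfb1 0.21 ± 0.40. In the Wnt list none was positive and 4 of 28 (14.3%) were negative, Lrp6 (−0.73 ± 0.16), beta-catenin Ctnnb1 (−0.70 ± 0.16), Tcf7l1 (−0.78 ± 0.23) and Wnt5a (−0.53 ± 0.17).

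Insulin signaling had negative genes from the receptor to the transcription factor and none that was positive. Insulin acts through its receptor, IRS adaptors, PI3 kinase and AKT on glucose uptake and on FOXO factors. Of 32 tested genes 6 (18.8%, against 7.69% of all genes) were negative and none positive (2.80% of all), with a median of −0.10. The adaptor Irs2 (chr8:10984681-11008929) had −1.35 ± 0.24, the catalytic subunit Pik3ca −0.88 ± 0.16 (both adjusted p = 4.90e-06), the transcription factor Foxo1 −0.88 ± 0.18, the receptor Insr −0.73 ± 0.16, the kinase Akt1 −0.73 ± 0.18 and Rictor, of mTOR complex 2, −0.67 ± 0.22 (adjusted p = 0.0640 without the limit on expression). Irs1 (0.38 ± 0.22), Akt2 (0.25 ± 0.28) and the glucose transporter Slc2a4 that insulin brings to the cell surface (0.10 ± 0.24) did not pass. In the Ras and MAP kinase pathway, a family chosen after its values were seen, none was positive and 6 of 24 (25%) were negative. Among them were Hras (−1.28 ± 0.22), Rras (−0.83 ± 0.16), the kinase ERK1, Mapk3 (−0.82 ± 0.17), and the exchange factor Sos1 (−0.87 ± 0.20).

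In the pathway of the hormone itself, most values were below 0 and few genes were called. Of 30 tested genes of GIPR and cAMP signaling 3 were negative and 1 positive (10% and 3.3%, against 7.69% and 2.80% of all genes), with a median of −0.31. Of the 30 values 22 were below 0. At an unadjusted p of edgeR under 0.05, 11 were negative and 1 was positive. Among the adenylyl cyclases, Adcy9 had −1.14 ± 0.25 and Adcy6 −0.56 ± 0.17, while Adcy3 was positive with 0.66 ± 0.24 at an adjusted p of 0.0498, which rose to 0.0945 without the limit on expression. The regulatory subunit of protein kinase A, Prkar2a, had −0.68 ± 0.19. The stimulatory G protein Gnas had −0.67 ± 0.25 (adjusted p = 0.0685), and the transcription factor Creb1 (−0.21 ± 0.18) and the phosphodiesterase Pde3b (−0.28 ± 0.26) did not pass. Among 24 immediate early genes, several of which cAMP induces, none was positive and 3 were negative (12.5%, against 7.69% of all genes). These were Klf2 (−1.42 ± 0.29), Jund (−1.04 ± 0.25) and Klf4 (−0.86 ± 0.24), while Fos had −0.01 ± 0.37 and Egr1 0.34 ± 0.38.

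Among the clock genes called, Arntl was positive and the others were negative. In the circadian clock, ARNTL (BMAL1) pairs with CLOCK or NPAS2 and binds E-boxes. These lie in the genes of its own repressors, such as CIART, and of output factors such as DBP and TEF. The output factors act on D-boxes. Of 21 tested genes 1 was positive and 4 were negative (4.8% and 19%, against 2.80% and 7.69% of all genes), with a median of −0.27. Arntl (chr7:113178471-113314126) had 1.41 ± 0.23 (adjusted p = 3.46e-07), a fold change of 2.66 from the same log2 value. Npas2 (0.96 ± 0.39) and the repressor Cry1 (0.51 ± 0.21) lay above 0 without passing, and Clock had −0.05 ± 0.17. Negative were the repressor Ciart (−1.28 ± 0.32), the output factor Tef (−0.86 ± 0.17), the kinase Csnk1e (−0.75 ± 0.22) and Per3 (−0.47 ± 0.16, adjusted p = 0.0349, or 0.0672 without the limit on expression). Dbp had −1.05 ± 0.44 and Hlf −0.74 ± 0.43, and neither passed, nor did Per1 (−0.31 ± 0.23), Per2 (−0.40 ± 0.23), Nr1d1 (−0.27 ± 0.26) or Nr1d2 (0.02 ± 0.19). The time of day at which the mice of each group were killed is not given in the labels, and its part in these values was not tested.

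The 250 bases before the start of 3 of the 4 negative clock genes hold the motif that the clock's activator or its output factors are known to bind, and they are printed for that reason, from RefSeq with build GRCm38.p6. The E-box searched was CACGTG, which reads alike on both strands, and the D-box TTATGTAA on either strand, and they cannot overlap. Capitals mark the motif. Ciart is on the minus strand at chr3:95882229-95882478 with 3 E-boxes, Tef on the plus strand with 1 E-box before each of its 2 starts (chr15:81802423-81802672 and chr15:81811164-81811413), and Per3 on the minus strand at chr4:151044666-151044915 with 2 D-boxes.
Ciart: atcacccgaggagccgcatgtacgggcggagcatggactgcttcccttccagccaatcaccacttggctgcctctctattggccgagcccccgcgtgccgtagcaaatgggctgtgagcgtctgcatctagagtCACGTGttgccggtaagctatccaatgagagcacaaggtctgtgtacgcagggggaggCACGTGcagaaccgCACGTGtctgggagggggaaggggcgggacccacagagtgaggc
Tef, first start: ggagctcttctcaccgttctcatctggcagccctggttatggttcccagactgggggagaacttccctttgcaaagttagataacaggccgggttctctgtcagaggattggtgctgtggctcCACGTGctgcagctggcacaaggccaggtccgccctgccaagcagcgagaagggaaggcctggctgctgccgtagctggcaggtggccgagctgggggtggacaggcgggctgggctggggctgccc
Tef, second start: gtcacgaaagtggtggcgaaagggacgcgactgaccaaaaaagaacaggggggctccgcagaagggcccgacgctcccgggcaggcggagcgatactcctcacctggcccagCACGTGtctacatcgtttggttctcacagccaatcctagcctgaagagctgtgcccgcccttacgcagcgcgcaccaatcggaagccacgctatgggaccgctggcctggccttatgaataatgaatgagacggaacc
Per3: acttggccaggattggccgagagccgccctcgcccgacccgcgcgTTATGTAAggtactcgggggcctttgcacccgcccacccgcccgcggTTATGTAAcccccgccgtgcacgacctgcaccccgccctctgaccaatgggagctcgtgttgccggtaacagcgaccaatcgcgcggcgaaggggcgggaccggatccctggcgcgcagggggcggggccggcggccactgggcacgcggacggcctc
The E-box stands at least once in 6.02% of all 32851 such windows and at least 3 times in 0.0609% of them, and the D-box in 0.819% and at least 2 times in 0.0183%. Of the 21 clock genes 17 have an entry in that table, 5 of them with an E-box (Ciart, Tef, Per1, Cry1 and Bhlhe41) and 1 with a D-box. A match is a description of the letters and not a site of binding.

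**Figure D4:**
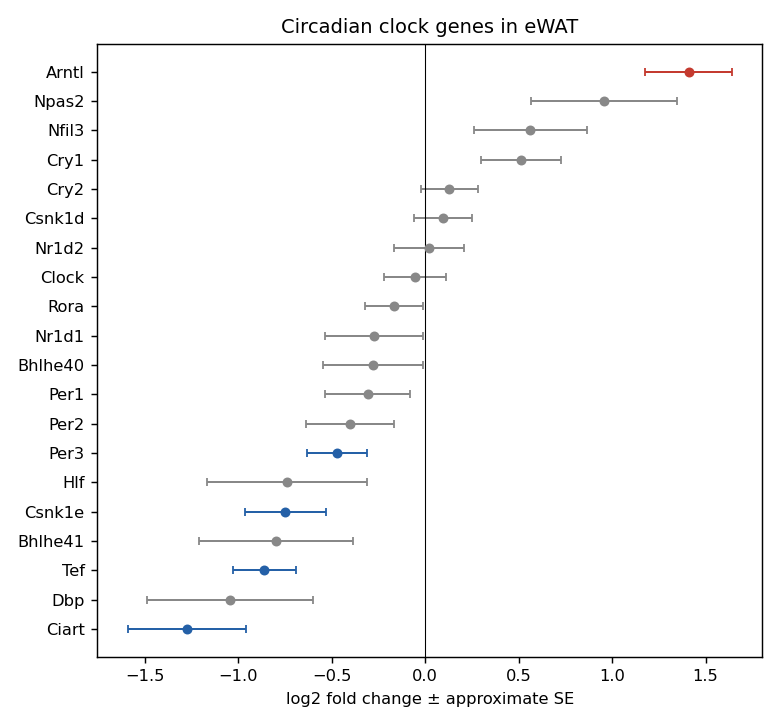
Log2 fold change as deposited (x axis) of clock genes with bars of 1 approximate standard error, red for the positive gene, blue for the 4 negative genes and grey for those that did not pass. Arntl is at the top with 1.41 and Ciart at the bottom with −1.28.

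Among genes of lipid synthesis, several desaturases were called, not all with the same sign. Of 25 genes of lipogenesis and desaturation 4 were positive and 1 was negative (16% and 4%, against 2.80% and 7.69% of all genes), with a median of 0.18. The desaturases Scd3, Fads1 and Scd1 had 1.04 ± 0.28, 0.81 ± 0.20 and 0.69 ± 0.17, and Acly, which makes cytosolic acetyl-CoA, had 0.83 ± 0.29 (adjusted p = 0.0449). Of the 40-base windows of Scd3, 6.2% also occur in Scd1. Fads3 was negative (−1.07 ± 0.25), and the rate-setting Fasn and Acaca did not pass (0.06 ± 0.28 and −0.47 ± 0.28). Gpam, the first acyltransferase of triglyceride synthesis, was positive with 0.75 ± 0.18. In sterol synthesis the regulator Srebf2 (0.49 ± 0.16) and the enzyme Msmo1 (0.57 ± 0.20) were positive and the cholesterol exporter Abca1 negative (−0.53 ± 0.15), out of 30. Acly, Srebf2 and Msmo1 did not pass without the limit on expression (adjusted p = 0.0857, 0.0507 and 0.0898). None of 26 genes of the TCA cycle and none of 29 of mitochondrial beta-oxidation was called by the adjusted p (edgeR's p-values, adjusted here), while 3 and 2 had an unadjusted p under 0.05, all positive, and the medians were 0.27 and 0.25, with 24 of 26 and 26 of 29 values above 0. None of 78 nuclear genes of oxidative phosphorylation was called either (1 positive and 2 negative at an unadjusted p under 0.05), but their median was −0.08 and 49 values were below 0, and all 13 coding genes of the mitochondrial genome were negative (median −1.26). In BCAA breakdown 1 of 25 was positive, Aldh6a1 (0.80 ± 0.23, median 0.27).

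Hormonal and metabolic programs gave calls of both signs. Of 23 genes of the glucocorticoid and fasting response 17.4% were negative and 4.3% positive, against 7.69% and 2.80% of all genes. Among these 23, Pdk4, which blocks glucose oxidation, was positive (0.79 ± 0.20) and 4 were negative, the receptor-induced factor Klf9 (−1.05 ± 0.18), Irs2 (−1.35), Foxo1 (−0.88) and Cebpb (−1.03 ± 0.27). Fkbp5 and Tsc22d3, which glucocorticoids induce in most cells, had 0.13 ± 0.24 and 0.31 ± 0.31. Of 29 adipokines 3 (10.3%, against 7.69% of all genes) were negative, among them Vegfa and C1qtnf9 (−0.77 ± 0.17), and none positive. The acute phase gene Saa3 was negative (−1.33 ± 0.38), the only called gene of 23 cytokines and acute phase genes. In 30 genes of amino acid metabolism 3 (10%, against the same 7.69%) were negative, among them the transporter Slc7a5 (−1.70 ± 0.48) and Odc1 (−0.74 ± 0.25). Gatm, of creatine synthesis, was positive (0.96 ± 0.24), while the creatine transporter Slc6a8 was negative (−0.88, adjusted p = 0.0202). Both belong to the list of thermogenic and beige adipocytes, of which 19 genes were tested. In that list 1 was positive and 4 were negative (5.3% and 21.1%, against 2.80% and 7.69% of all genes), with a median of −0.38. Of 24 genes of the endoplasmic reticulum stress list Dnajb9 alone was positive (0.49 ± 0.15). Of these genes Odc1 lost its call without the limit on expression (adjusted p = 0.0598).

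Progenitor and collagen genes gave few calls. Of 18 progenitor genes 2 (11.1%, against 2.80% of all genes) were positive and none negative, with a median of 0.15. The positive ones were the PDGF receptor Pdgfra (1.09 ± 0.27) and Vit (0.94 ± 0.26), whereas Pi16 and Dpp4, which mark early progenitors, had 0.19 ± 0.20 and 0.39 ± 0.25. Of 26 collagen genes Col6a6 alone (3.8%) was called (1.09 ± 0.35, adjusted p = 0.0509 without the limit on expression), and the median was −0.05. Among abundant genes outside the lists, singled out after their values were seen, the estrogen sulfotransferase Sult1e1 had 1.77 ± 0.34 at an average log2 CPM of 5.71, the ferritin receptor Scara5 1.02 ± 0.18 and the enkephalin precursor Penk 0.98 ± 0.22.

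Ribosomal protein genes were shifted to the negative side as a group by small amounts. Of 84 tested genes of the cytosolic ribosome 18 (21.4%, against 7.69% of all genes) were negative and none positive, with a median of −0.36 and values between −0.83 and 0.29. Without the limit on expression 10 were negative. Rpl38 and Rpsa had −0.83 ± 0.21 and −0.82 ± 0.17. Of 78 mitochondrial ribosomal proteins 1 was negative, Mrpl52 (−0.59 ± 0.16), and their median was −0.05. Many ribosomal protein genes have processed pseudogenes, so short reads may be split among copies. Histone genes that are copied with DNA, whose RNA ends without a poly(A) tail, had a median of −0.39 over 43. None was positive and 3 were negative (7%, near the 7.69% of all genes), H2ac21 (−1.81 ± 0.36), H3c14 (−1.07 ± 0.33) and H4c8 (−0.55 ± 0.19). Of 17 nuclear long noncoding RNAs 3 were negative (17.6%), Kcnq1ot1 (−1.29 ± 0.24), Gas5 (−0.59 ± 0.16) and Snhg8 (−0.64 ± 0.23). Snhg8 and the histone H4c8 did not pass without the limit on expression (adjusted p = 0.0944 and 0.0824). Of 128 small nucleolar RNAs none reached the limit. The 5 RNAs without a poly(A) tail or of the ribosome were all negative between −2.05 and −1.78, and so were all 13 mitochondrial coding genes, with a median of −1.26. Whether the amount of RNA without a poly(A) tail in each library has a part in the other negative values was not tested.

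Regulators of chromatin made up a large negative family, which was chosen after values had been seen. Of 136 tested remodelers and histone or DNA modifying enzymes 39 (28.7%, against 7.69% of all genes) were negative and none positive, with a median of −0.33. They covered the NuRD subunit Mbd3 (−0.98 ± 0.17), the histone methyltransferases Kmt5a (−1.09 ± 0.22), Kmt2c (−0.79 ± 0.17) and Ezh2 (−0.86 ± 0.25), the DNA demethylase Tet3 (−0.75 ± 0.16), the remodelers Atrx (−0.77 ± 0.17) and Bptf (−0.80 ± 0.18) and the acetyltransferase Crebbp (−0.79 ± 0.18). By contrast, of 351 zinc finger genes named Zfp, 12 (3.4%) were negative and 1 was positive, with a median of 0.04.

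Called negative genes had long transcripts. The longest GENCODE M21 transcript of a gene was known for 12650 of the 13657 genes (92.6%), and its median length was 4281 bases in the negative, 3575 in the positive and 3318 in the uncalled genes. Genes were split by length into 5 groups of equal size. In the longest, from 5257 bases up, 14.7% were negative and 2.13% positive, against 4.31% to 6.84% negative in the 4 shorter groups. By GC content the highest of 5 groups held 10.8% negative and 1.46% positive genes, and the other groups 6.48% to 7.39% negative and 3.20% to 3.48% positive ones. Of the chromatin genes with a known length 71 of 134 were in the longest group, with 29 negative (40.8%), and of the 63 shorter ones 10 were negative (15.9%), against 6% of all shorter genes. The 83 ribosomal protein genes of known length had no member in the longest group. Across chromosomes the share of negative genes ran from 5.02% on chromosome 16 to 9.62% on chromosome 5, and that of positive genes from 1.85% on chromosome 4 to 4.43% on chromosome 6, while all 15 genes of the mitochondrial genome were negative. The part of transcript length in the calls was not tested.

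**Figure D5:**
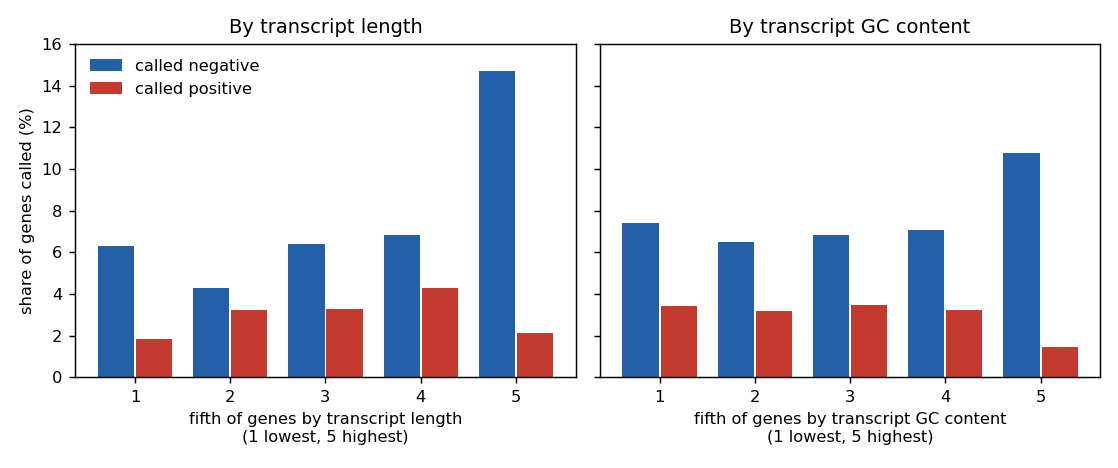
Share of genes called (y axis, percent) in 5 equal groups of 12650 genes by the length (left) and GC content (right) of the longest transcript, blue bars for negative and red bars for positive genes. The longest group stands out with 14.7% negative genes, and the group of highest GC content with 10.8%.

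The size of a change that was called differed with the level, and was smallest at levels between 4 and 6. Between log2 CPM of 0 and 1, 40 genes were positive and 62 negative of 1300, and the median absolute log2 fold change of these was 1.40. Between 4 and 6 it was 0.64, with 166 positive and 442 negative of 4588. Between 6 and 8 the median was 0.67. Between 8 and 10 only 4 were positive and 7 negative of 411, and the median was 0.99. Above 10 the median was 1.19, with 5 positive and 15 negative of 94. The negative ones included Lars2, the mitochondrial leucyl-tRNA synthetase (−1.68 ± 0.17 at 11.64), beside mitochondrial and ribosomal RNAs. Of the 40-base windows of Lars2, 0 occur in mt-Rnr2, and sequence shared with Rn45s was not examined.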

How the data were processed

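RNA-seq of eWAT from 3 saline and 3 GIP analog mice was used, 6 of 12 samples. According to the submitters' processing notes and the methods of the paper, reads were trimmed with Trim Galore 0.6.4, aligned with Rsubread 2.6.2 to GRCm38, filtered for low counts with DESeq2 1.32.0 and compared with edgeR 3.34.0. The counting step and annotation are not given in the sources used here. The authors deposited a log2 fold change and an average log2 CPM per gene. The likelihood ratio, a score, was also deposited by the authors. Their p-value follows from it by a chi-square law with 1 degree of freedom (checked), and their own FDR is a Benjamini-Hochberg adjustment over 18482 genes. These are columns of the authors' comparison, used because the 6 columns per sample (12 in both tables) match no label and were not used. The depth and its precision per sample are therefore unknown, and the test planned on counts was replaced by the authors' p-values from edgeR, adjusted anew over the 13657 genes with average log2 CPM of at least 0. The p-values measure the spread between these samples only.

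Lists (65) were described by counts and medians without a set test. Members and lists were chosen with earlier results of these data known. Genes named are the 10 largest changes in each direction among called genes (without immunoglobulin and T cell receptor segments and numbered models), the 5 most abundant called genes in each direction, up to 5 members of a list with the smallest p, and 7 adipose genes; further members were singled out after their values were seen. Identifiers were matched to RefSeq of GRCm38.p6 (25275 of 27179). Promoter GC content was not examined, since the promoter table covers under 80% of the genes, which makes that check void. A few genes of the lists are counted but not reported here by name. The adjustment steps were tested on simulated data. Python 3.11.15, numpy 2.4.6, pandas 2.3.3, scipy 1.17.1 and matplotlib were used.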

Additional observations from a re-analysis of the deposited data

How the results depend on the processing

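The number of called genes, 1433, became 1342 at a limit of 1 on the average log2 CPM, 1130 with no limit, 1404 without segments, mitochondrial genes and RNAs without a poly(A) tail, 756 with the authors' own FDR, 707 at an adjusted p under 0.01 and 192 with Holm's adjustment. Negative calls outnumbered positive ones in each of these settings. With an absolute log2 fold change above 1.5, the 81 genes became 45 at a limit of 1, because 36 of them lie at a lower level, and 32 with Holm's adjustment, and between 67 and 110 in the other settings. The authors' own FDR is missing for 4172 of the 13657 genes (30.5%) at every level of expression, and for 453 of the 1433 called genes, which lowers that count. Of 232 called genes examined one by one, 36 lost their call with no limit on expression, among them Per3, Cd74, Mmp9, Mmp13, Acly, Cpa3 and Srebf2, 25 with the authors' own FDR, of 163 that have it, 83 at an adjusted p under 0.01, 172 with Holm's adjustment, 3 (Adcy3, Fabp5 and Snhg8) without segments, mitochondrial genes and RNAs without a poly(A) tail, and none at a limit of 1, where 213 could be tested. Of the 65 lists, 15 had their count of calls cut by more than 1.5 times with no limit, among them MHC class II (5 to 3) and ribosomal proteins (18 to 10). No sign can change in these settings. No paired analysis was possible because the columns per sample carry no replicate number or treatment. For the same reason DESeq2, other size factors and leaving out each sample were not run, so whether 1 mouse decides a call is unknown here.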

Other observations

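Of the 13522 genes under the limit on expression, 6814 stood at the lowest average level of the table, and 392 had an unadjusted p under 0.05, with 161 positive and 231 negative. Some of the positive ones, singled out after their values were seen, are genes of NK and T cells. Tbx21, the T-bet factor of these cells, had a log2 fold change of 2.64, the granzyme Gzmb 2.12, the NK receptor Ncr1 1.74 and the activation marker Cd69 1.80. On the negative side stood Rpph1, the RNA of ribonuclease P, with −2.33, and the ephrin receptor Ephb1 with −2.09. These genes were not tested with the others, and their values are given without a call.

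Immunoglobulin and T cell receptor segments gave 3 called genes among 21 tested, against 10.5% of all genes, so the count is not particular to segments. The 2 positive ones had 1.23 and 2.70 and the negative one −5.04, the most negative value among called genes. Segments share reads, so each is uncertain alone.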
